A study of Mus musculus with 20 samples.

Results

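The comparison set brain RNA of the line labelled J1 lf/lf against that of Wild type mice. Its members are 6 of the 20 libraries of the series, 3 labelled J1 lf/lf and 3 labelled Wild type, and within them the 16063 genes, of 23845 in the table, that passed a filter on low counts. Both groups carry the strain label C57/Bl6J, and the series describes the mice as kept on a normal diet. The series lists its lines as single-isoform knockouts of JNK, but the labels do not spell out the code J1 lf/lf, and they give neither age nor sex nor which allele the line carries. For 2 comparisons, libraries labelled J2 lf/lf (3) and J17b (2) were used as well. Library totals of the 6 ran from 21395041 to 33828755 estimated counts, and levels are given as counts scaled to library size with a total of 1000000 and corrected by TMM factors (CPM). Transcripts of the Y chromosome were present in every one of the 6 (summed 74.7 to 103.6 TPM over 4 genes), and brain markers were at high levels, with the myelin gene Mbp at 2379 to 3718 CPM and the astrocyte gene Gfap at 201 to 259 CPM.

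The c-Jun N-terminal kinases are stress-activated MAP kinases encoded by Mapk8 (JNK1), Mapk9 (JNK2) and Mapk10 (JNK3), the last being expressed mainly in the nervous system. They are switched on by the kinases Map2k4 and Map2k7, which in turn receive signals from a broad set of MAP3 kinases, and scaffold proteins hold these layers together. In neurons they phosphorylate AP-1 transcription factors such as c-Jun, and also cytoskeletal proteins of axons and dendrites. In metabolic tissues JNK1 is known for dampening insulin signalling.

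Only 2 genes differed between J1 lf/lf and Wild type over all genes tested (edgeR quasi-likelihood test, Benjamini-Hochberg adjusted p under 0.05), and both were lower. They make up 0.0125% of the genes tested, while 0.0% were called higher, although 417 genes were higher at an unadjusted p under 0.05 and the DESeq2 Wald test called 12 higher (limma 0). Single libraries moved these counts. Without Wild type replicate 3, 9 genes were called lower and 1 higher, and without J1 lf/lf replicate 3, 1 was called lower. Without Wild type replicate 1 or J1 lf/lf replicate 1, 3 and 12 were called higher. The higher genes of DESeq2 and those without J1 lf/lf replicate 1 included Doc2g, Omp, Ms4a15, Shisa3 and Tbx21. These are olfactory bulb genes that were high in J1 lf/lf replicates 2 and 3, as described below. The 2 genes called with all libraries, Ide and Btaf1, lie on chromosome 19, whereas Mapk8 lies on chromosome 14. The labels do not say whether each library is a different animal. Unless stated otherwise, the edgeR p-values use the scatter within all groups of the series, which were fitted together. They thus do not rest on the scatter of J1 lf/lf and Wild type alone, and they cover no scatter beyond the libraries of the series. With 3 libraries against 3, an exact permutation test of a single gene cannot go below p = 0.1.

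Ide encodes the insulin-degrading enzyme, a zinc metalloprotease that also cleaves amyloid beta. Its level was 112.9, 109.1 and 105.0 CPM in the 3 Wild type libraries and 57.9, 54.2 and 55.1 CPM in the 3 J1 lf/lf libraries. The groups were far apart, and each held together closely. Ide thus fell by 0.97 on the log2 scale (SE 0.09), to 51.1% of its Wild type mean (adjusted p = 1.55e-05, two-sided exact permutation p = 0.1, the smallest possible). Btaf1 encodes a factor that removes TATA-binding protein from DNA. It stood at 67.6, 66.4 and 62.2 CPM in Wild type and at 42.4, 43.5 and 36.7 CPM in J1 lf/lf, again without overlap. Its fall to 62.5% (log2 fold change -0.68, SE 0.10, adjusted p = 0.00739, exact permutation p = 0.1) was less secure than that of Ide. Btaf1 was no longer called when J1 lf/lf replicate 3 was left out (log2 fold change -0.61, adjusted p = 0.17) or when only the 2 groups entered the fit (-0.68, adjusted p = 0.475).

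The neighbourhood of the pair was then described gene by gene. Btaf1 spans chr19:36926079-37012752 on the plus strand and Ide chr19:37268743-37337852 on the minus strand (mm10, GENCODE release M21). Fgfbp3, which encodes a secreted binding protein of fibroblast growth factors, starts 6464 bases before Btaf1 and is read away from it. The 250 bases before the RefSeq starts of this divergent pair (GRCm38.p6, chr19:36925829-36926078 on the plus strand for Btaf1 and chr19:36919600-36919849 on the minus strand for Fgfbp3) are shown because the 2 genes share this stretch of the chromosome and Btaf1 changed, with a match to the cyclic AMP response element in capitals.
Btaf1: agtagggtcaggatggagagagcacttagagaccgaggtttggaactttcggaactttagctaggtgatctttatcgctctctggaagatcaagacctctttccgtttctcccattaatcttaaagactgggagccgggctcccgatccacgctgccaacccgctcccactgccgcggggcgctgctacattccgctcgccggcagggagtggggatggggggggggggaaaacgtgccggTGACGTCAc
Fgfbp3: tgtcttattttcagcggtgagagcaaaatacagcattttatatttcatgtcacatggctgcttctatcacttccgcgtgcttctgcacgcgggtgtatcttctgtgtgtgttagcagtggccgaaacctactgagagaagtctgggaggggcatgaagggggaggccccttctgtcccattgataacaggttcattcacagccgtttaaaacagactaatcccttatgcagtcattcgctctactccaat
Both strands were searched for the AP-1 site TGANTCA, the cyclic AMP response element TGACGTCA, which ATF family members can bind, the E-box CACGTG and the ROR core TAGGTCA. Over 32851 RefSeq windows of this length these letters were found in 6.75%, 1.55%, 6.02% and 2.23%. The Btaf1 window held 1 match, to TGACGTCA just before the start, and the Fgfbp3 window none, which says only that these letters are not there. The G and C content was 58.4% with 17 CpG for Btaf1 and 47.2% with 8 CpG for Fgfbp3, against medians of 52.4% and 6 over all windows.

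Within 1 Mb on each side of Ide, 19 other genes were tested. Btaf1 was the only one called, and the median log2 fold change of the 19 was -0.003. Fgfbp3 was at 11.5, 8.90 and 5.59 CPM in Wild type and at 4.99, 6.24 and 7.75 CPM in J1 lf/lf, so that the groups overlapped (log2 fold change -0.46, SE 0.20, unadjusted p = 0.0364). Cpeb3 and March5 lie between Btaf1 and Ide. Cpeb3, a regulator of mRNA translation at synapses, was at 123, 118 and 129 CPM against 125, 129.9 and 118 CPM (0.01), and March5, a ubiquitin ligase of mitochondria, at 92.5, 88.4 and 96.8 CPM against 94.4, 92.0 and 89.8 CPM (-0.01). The mitotic kinesin Kif11, beyond Ide, was low throughout, at 1.09 to 1.98 CPM in the 6 libraries. Hhex, also beyond Ide, was the 1 neighbour higher at an unadjusted p under 0.05 (0.74, SE 0.35, unadjusted p = 0.0463). It was at 1.43, 1.03 and 1.11 CPM in Wild type and at 1.76, 1.27 and 2.98 CPM in J1 lf/lf, with overlap. A segment of chromosome 19 that holds Ide and Fgfbp3 is known to differ in copy number among C57BL/6J mice. Copy number was not measured here, and its part in the lower Ide and Btaf1 was not tested.

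Ide, Btaf1 and Fgfbp3 also differed among the other lines, which puts the J1 lf/lf level in context. For Ide the order of group means was J1 lf/lf (55.7 ± 1.91 CPM, SD, n = 3), J17b (56.8 ± 6.88, n = 2), J17a (85.0 ± 6.01, n = 3), J27a (86.3 ± 3.06, n = 3), J2 lf/lf (101 ± 17.2, n = 3), Wild type (109 ± 3.92, n = 3) and J27b (109 ± 3.03, n = 3). Neighbours in this order overlapped, apart from J17b and J17a, with libraries of at most 61.7 and at least 79.1 CPM. J1 lf/lf and J17b did not differ detectably in Ide (log2 difference -0.03, SE 0.11) or Btaf1 (-0.02, SE 0.11). J17b had been chosen for comparison as a line in which the same genes were lower against Wild type. Its closeness in these genes thus followed from the choice and is no separate result. Fgfbp3 averaged 5.47 ± 0.26 CPM in J17b (n = 2), 6.26 ± 1.13 in J17a, 6.33 ± 1.38 in J1 lf/lf, 6.89 ± 0.65 in J27a, 8.66 ± 2.96 in Wild type, 10.1 ± 1.12 in J2 lf/lf and 11.05 ± 1.19 in J27b (SD, n = 3 each). The groups with low Ide were thus those with low Fgfbp3, except that Wild type replicate 3, at 5.59 CPM of Fgfbp3, had an Ide level of 105.0 CPM. Within the J2 lf/lf group, replicate 1 was lower than the other two in all 3 genes, at 81.2, 52.6 and 8.88 CPM.

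**Figure D1:**
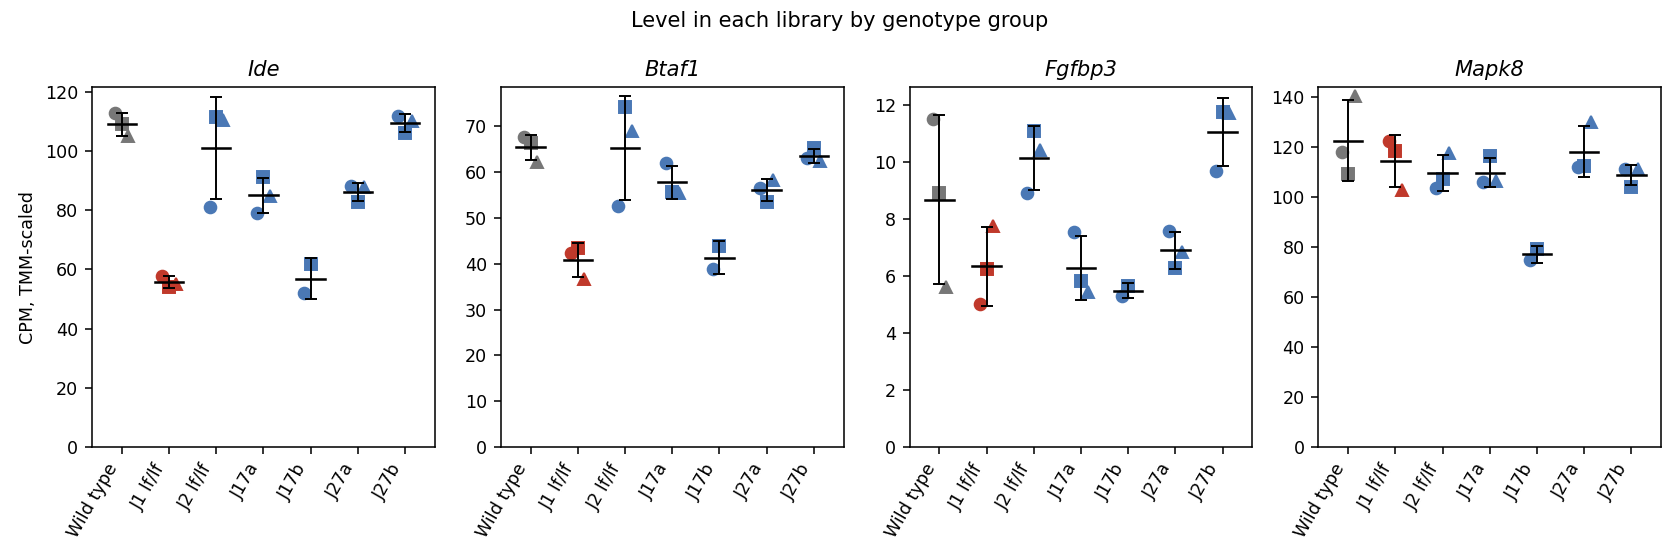
Level of Ide, Btaf1, Fgfbp3 and Mapk8 in every library of the 7 groups, in TMM-scaled CPM. Points are libraries (circle, square and triangle for replicates 1, 2 and 3), horizontal lines are group means and error bars are SD. Ide lies at 54.2 to 57.9 CPM in J1 lf/lf and at 105.0 to 112.9 CPM in Wild type, while Mapk8 overlaps between these groups.

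Of the 3 JNK genes, none was called. Mapk8 stood at 117.8, 108.9 and 140.4 CPM in Wild type and at 122.1, 118.1 and 102.5 CPM in J1 lf/lf. The groups overlapped (log2 fold change -0.10, 95% interval -0.28 to 0.09, exact permutation p = 0.6), and without Wild type replicate 3 the value was 0.01. Mapk9 was at 302.5, 293.5 and 360.4 CPM against 317.0, 324.8 and 308.0 CPM (-0.01, 95% interval -0.58 to 0.56). This interval uses the spread within all groups of the fit, and the J2 lf/lf libraries were at 177.1, 171.3 and 58.1 CPM of Mapk9. Mapk10 was at 392.9, 385.0 and 382.7 CPM against 376.1, 356.9 and 342.0 CPM, each J1 lf/lf library below each Wild type library (-0.11, 95% interval -0.25 to 0.03, unadjusted p = 0.108). Counts per gene do not show which exons were used. Of 20 genes tested within 1 Mb on each side of Mapk8, none was called, and 2 had an unadjusted p under 0.05, Wdfy4 (0.62) and Zfp488 (0.43), both higher (2.6% of all genes tested).

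The kinases above JNK were near their Wild type levels. Of 17 kinases and adaptors of the pathway, 5 had a positive and 12 a negative fold change, with a median of -0.03 on the log2 scale against -0.00072 over all genes tested. The median ran from -0.04 to -0.09 with 1 library left out, the last without Wild type replicate 3. The shift was small, and the list medians of the 2 groups did not overlap. With 3 libraries against 3, even a complete split cannot go below p = 0.1 in an exact permutation test. The lists of ER chaperones and of amyloid processing and clearance genes, described below, were split as well. The split of the JNK pathway list was not tested. Its list median lay 0.064, 0.068 and 0.065 log2 units from the mean of the 6 libraries in Wild type. In J1 lf/lf it lay at -0.042, -0.049 and -0.019. At an unadjusted p under 0.05, which 2.45% of all genes passed as lower and 2.6% as higher, 1 member was higher and 2 were lower. Map3k1, a MAP3 kinase of the JNK branch, was at 12.1, 11.9 and 12.01 CPM in Wild type and at 13.3, 18.9 and 16.1 CPM in J1 lf/lf (0.43, unadjusted p = 0.00566). Map3k5 (ASK1), which responds to oxidative stress, was at 50.0, 51.1 and 51.3 CPM against 47.4, 44.2 and 38.7 CPM (-0.23, unadjusted p = 0.0104). Both were without overlap, but neither passed over all genes. Map3k13, a relative of the axon injury kinase DLK, was at -0.21 with overlapping libraries, and the direct JNK activators Map2k4 and Map2k7 were at -0.05 and -0.03.

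Scaffolds of the pathway were evenly split, with 4 of 8 members positive, a median of -0.02 (-0.07 to 0.04 with 1 library left out) and none at an unadjusted p under 0.05. Among 12 MAP kinase phosphatases, which remove the activating phosphates, 8 were negative (median -0.17) and none had an unadjusted p under 0.05. That median was -0.05, -0.07 and -0.25 without Wild type replicates 1, 2 and 3. Without J1 lf/lf replicates 1, 2 and 3 it was -0.14, -0.08 and -0.065. Dusp1 came nearest, at 23.5, 29.4 and 28.0 CPM against 19.4, 15.4 and 23.4 CPM, each J1 lf/lf library below each Wild type library (-0.48, unadjusted p = 0.055). Of 15 AP-1 and ATF factors 6 were positive and 9 negative, with none at an unadjusted p under 0.05. Jun itself was at 68.4, 68.0 and 51.3 CPM in Wild type and at 61.0, 58.9 and 59.6 CPM in J1 lf/lf, so that Wild type replicate 3 was the lowest and the other Wild type libraries the highest (-0.07).

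Insulin and IGF signalling genes had a median of -0.06, with 14 of 20 negative. Igfbp2, a secreted binding protein of insulin-like growth factors, was at 41.2, 37.4 and 28.7 CPM in Wild type and at 44.0, 50.5 and 64.3 CPM in J1 lf/lf, without overlap (0.56, SE 0.16, unadjusted p = 0.00268). Igfbp5 lay the other way, at 218, 262 and 228 CPM against 186, 197 and 213 CPM (-0.25, unadjusted p = 0.0135). Pik3r1, the regulatory subunit of PI3 kinase, was at -0.23 with overlap. Since Ide also degrades amyloid beta, 17 genes of amyloid processing and clearance were examined. Of these, 2 had an unadjusted p under 0.05, the alpha-secretase gene Adam10 (-0.20) and the neprilysin gene Mme (-0.33), both with overlapping libraries, and App itself was at -0.02.

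The ranking below Ide and Btaf1 held many small differences and few large ones. At an unadjusted p under 0.05 there were 393 genes lower and 417 higher, 810 in all, where 5% of the genes tested is 803. In 638 genes (3.97%) each J1 lf/lf library lay below each Wild type library, and in 695 (4.33%) above. Of the 13089 more abundant genes (mean logCPM at or above 1), 19 differed more than 2-fold between the groups. None of the genes that follow passed the threshold over all genes, and their differences are given as values.

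Below Ide and Btaf1, the abundant genes without overlap that had the lowest p on the lower side were, in order, Cd93, Arntl, Zfp189, Gcnt2, Ppp1r3g, Ubtd2, Pdp1, Ccdc6, Abca6 and Tnc. Cd93, a receptor on endothelial cells, was at 8.90, 9.55 and 10.3 CPM in Wild type and at 5.55, 6.13 and 6.88 CPM in J1 lf/lf (-0.63, SE 0.14, adjusted p = 0.232). Tnc, the matrix protein tenascin C, was at 7.30, 8.16 and 9.40 CPM against 5.36, 4.76 and 3.99 CPM (-0.82). Both were lower in 3 of 3 libraries, and the whole list of endothelial and pericyte genes did not go with Cd93, having 8 of 12 positive and a median of 0.05 (-0.03 to 0.07 with 1 library left out). Arntl, which encodes the clock activator BMAL1, was at 29.4, 27.3 and 31.9 CPM against 22.1, 22.4 and 21.5 CPM (-0.42, SE 0.10, adjusted p = 0.254). Ppp1r3g, a subunit that directs protein phosphatase 1 to glycogen, was at 10.3, 13.2 and 8.13 CPM against 7.54, 6.27 and 4.73 CPM (-0.78). Pdp1, the phosphatase that activates pyruvate dehydrogenase, was at 183, 151 and 203 CPM against 141, 138 and 133 CPM (-0.38).

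Of the others, Gcnt2, a glycosyltransferase that makes branched I antigens, was at -0.47, the zinc finger gene Zfp189 at -0.57, Ubtd2 at -0.37 and Ccdc6 at -0.26. Each of these had its 3 J1 lf/lf libraries below all Wild type libraries. Abca6, a lipid transporter of the ABC family, was uneven within the line, at 3.82, 5.82 and 4.84 CPM in Wild type and at 3.56, 0.60 and 0.83 CPM in J1 lf/lf (-1.58). Replicate 1 was thus close to Wild type, and without it the log2 fold change of Abca6 was -2.76 with an adjusted p of 7.48e-05. Larger differences at low levels were seen in H2-Eb1, a chain of MHC class II (3.10, 4.61 and 4.12 CPM against 1.25, 2.15 and 3.07 CPM), and Chrna5, a nicotinic receptor subunit (3.92, 1.95 and 3.17 CPM against 1.90, 1.41 and 1.84 CPM).

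Among genes with higher values, the myelin gene Mobp was even across the 3 J1 lf/lf libraries. Mobp, a structural protein of myelin, was at 252, 307 and 255 CPM against 347, 357 and 367 CPM (0.39, SE 0.10, adjusted p = 0.435). Pcp4l1, a small protein related to the calmodulin regulator Pcp4, was at 141.7, 133.0 and 128.0 CPM against 161.8, 182.4 and 195.9 CPM (0.42). Slc38a3, a glutamine transporter of astrocytes, was at 70.2, 66.6 and 60.4 CPM against 74.0, 98.2 and 95.8 CPM, with replicate 1 just above Wild type (0.44). Without J1 lf/lf replicate 1, edgeR called Pcp4l1 (adjusted p = 0.0305) and Slc38a3 (adjusted p = 0.00965), as it did olfactory bulb genes such as Doc2g. Cep128, a centrosome protein, was at 5.97, 5.56 and 5.43 CPM against 10.4, 7.95 and 12.5 CPM (0.86), and Sall1, a zinc finger transcription factor, was at 0.43.

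Other genes on this side of the ranking were Pigz (0.58), an enzyme of GPI anchor synthesis, Pmf1 (1.00), a kinetochore protein, Lgr6 (1.03), a receptor for R-spondins, Pcdhb8 (0.78), a clustered protocadherin, Chodl (1.31), Slc47a1 (0.87), a transporter of organic cations, and the kinesin gene Kif6 (0.84). Pcdhb8 belongs to a family of similar genes, between which RSEM shares reads, so its value is uncertain. Doc2g, Sp8 and Tshz1 were also among the highest ranked and are described with the olfactory bulb genes, with which they moved.

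**Figure D2:**
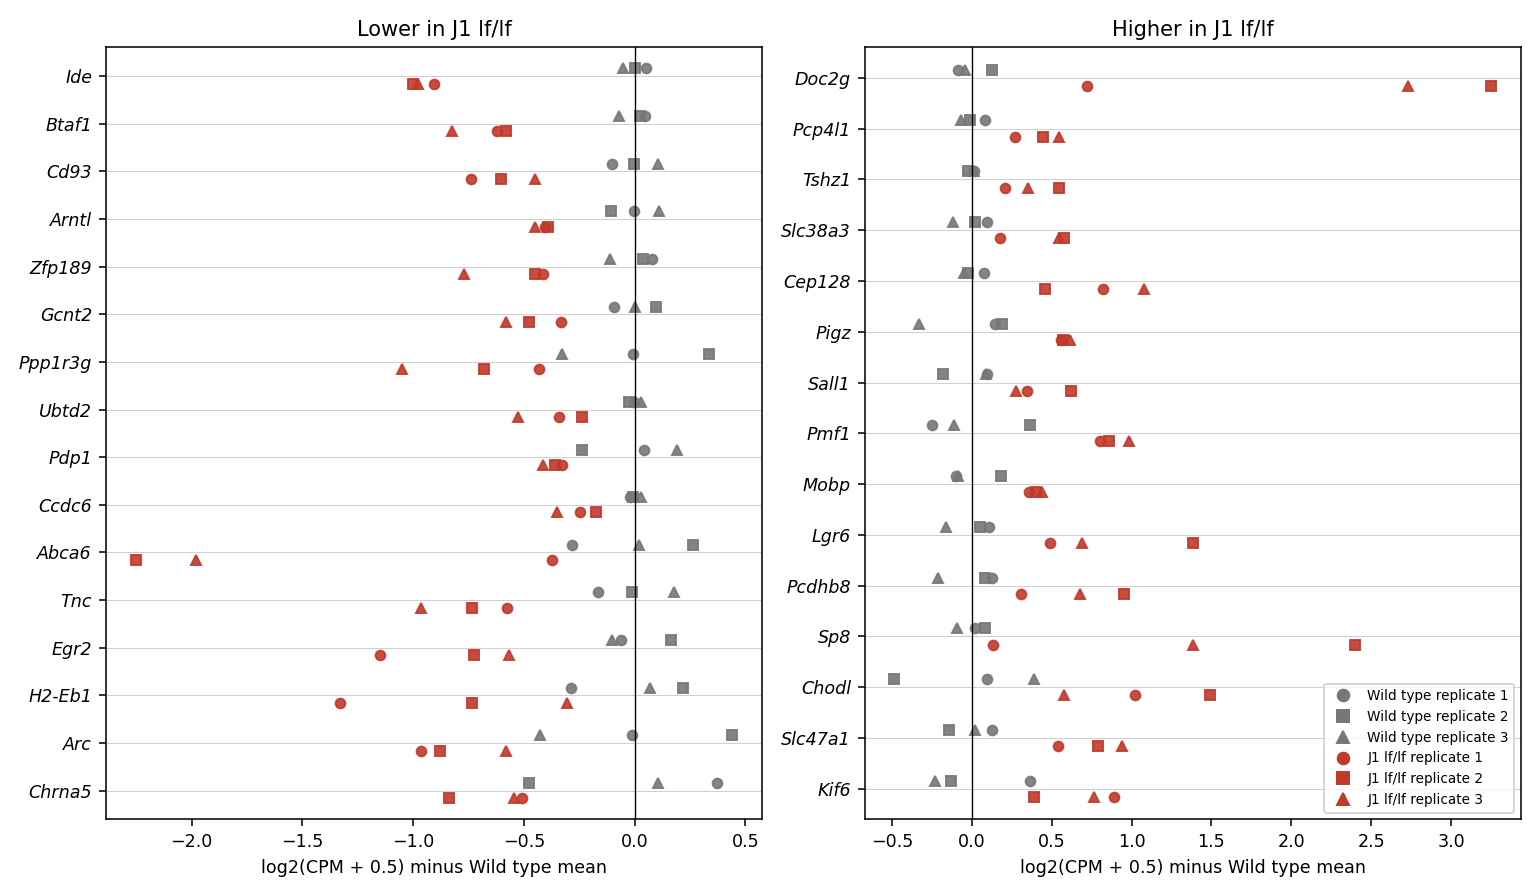
Genes at the top of the ranking, as log2(CPM + 0.5) minus the Wild type mean, with 1 point per library (grey for Wild type, red for J1 lf/lf, circle, square and triangle for replicates 1, 2 and 3). Groups do not overlap in any gene shown, which the naming rule required, and Abca6, Doc2g and Sp8 show J1 lf/lf replicate 1 close to Wild type.

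Circadian clock genes, whose products form the daily transcription loop, were split. Of 17 tested, 8 were positive and 9 negative (median -0.02, and -0.11 to 0.01 with 1 library left out), yet 6 were lower and 1 higher at an unadjusted p under 0.05. Of all genes tested, 2.45% were lower and 2.6% higher at that threshold. Nr1d1, the repressor REV-ERB alpha, was at 156.7, 156.1 and 151.4 CPM in Wild type and at 137.9, 128.8 and 130.6 CPM in J1 lf/lf (-0.22, unadjusted p = 0.00825). Per1, a repressor that also responds to neuronal activity and glucocorticoid, was at 108.7, 111.8 and 78.3 CPM against 71.3, 87.1 and 75.3 CPM, with overlap through Wild type replicate 3 (-0.35). Bhlhe40 was at -0.27 and Rorb at -0.39, both without overlap, and Npas2, a partner of BMAL1, at -0.22. Per3 lay the other way, at 35.2, 33.7 and 36.2 CPM against 41.9, 39.2 and 43.3 CPM (0.24, unadjusted p = 0.0102). The times at which the tissue was taken are not given in the labels, and their part in these values was not tested.

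Glucocorticoid response genes had a median of -0.16, with 8 of 12 negative and 4 of these at an unadjusted p under 0.05 (2.45% of all genes tested). The median was -0.08 without Wild type replicate 2 and also without J1 lf/lf replicate 1. Sgk1, a kinase induced by glucocorticoid, was at 146.0, 157.5 and 143.1 CPM in Wild type and at 78.1, 123.9 and 76.7 CPM in J1 lf/lf (-0.68, SE 0.19, adjusted p = 0.624). Zbtb16 (-0.38), Per1 and Errfi1 (-0.18), a brake on EGF receptor signalling, were the others. Fkbp5, the best known target of the receptor in brain, was at 56.6, 65.7 and 41.5 CPM against 47.3, 57.2 and 57.7 CPM and did not go with them (-0.02).

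ER chaperones, which fold proteins in the secretory pathway, had negative fold changes in 14 of 14 members, with a median of -0.13. Of all genes tested, 50.2% were negative. Manf, a secreted stress protein of the ER, was at 41.8, 40.9 and 41.8 CPM in Wild type and at 35.3, 32.0 and 33.2 CPM in J1 lf/lf (-0.31, unadjusted p = 0.00278). Pdia4, a disulfide isomerase, was at 46.7, 43.7 and 46.4 CPM against 36.2, 38.2 and 34.9 CPM (-0.32, unadjusted p = 0.00385), and Hspa5, the chaperone BiP, at 385.0, 353.8 and 352.9 CPM against 310.2, 325.5 and 286.5 CPM (-0.24, unadjusted p = 0.0108). In 5 members, the J1 lf/lf libraries lay below all Wild type libraries, as in 3.97% of all genes tested. Xbp1, the transcription factor that drives such genes, was at -0.21 with an overlap by 1 library. Cytosolic heat shock genes were at a median of -0.10 (-0.05 without Wild type replicate 3, -0.06 without J1 lf/lf replicate 3 and -0.16 without J1 lf/lf replicate 1), with none of 10 at an unadjusted p under 0.05.

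Myelin and oligodendrocyte genes were positive in 10 of 13, with a median of 0.18 (0.13 to 0.24 with 1 library left out). The list median lay -0.26, -0.07 and 0.08 log2 units from the mean of the 6 libraries in Wild type replicates 1, 2 and 3. In the J1 lf/lf replicates it lay at 0.18, -0.06 and 0.11, so the groups overlapped. At an unadjusted p under 0.05, 6 members were higher (2.6% of all genes tested). Besides Mobp these were Cldn11 (139.9, 158.6 and 138.8 CPM against 170.0, 170.5 and 173.2 CPM, 0.23), Mag (0.22), Cnp (0.18), Mog (0.26) and Mal (0.23). Cldn11 seals the layers of myelin. The 3 members with negative values, Ermn, Ugt8a and Aspa, were high in both Wild type replicate 3 and J1 lf/lf replicate 1 (Ermn at 131 and 129.8 CPM against 78.7 to 86.1 CPM in the other 4). In bulk tissue, more cells of a type and more RNA per cell cannot be told apart. Cholesterol synthesis genes, on which myelin depends, were positive in 9 of 14 (median 0.06, and 0.03 and 0.13 without Wild type replicates 2 and 3), and Lss (0.28), which closes the sterol rings, had an unadjusted p under 0.05.

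**Figure D3:**
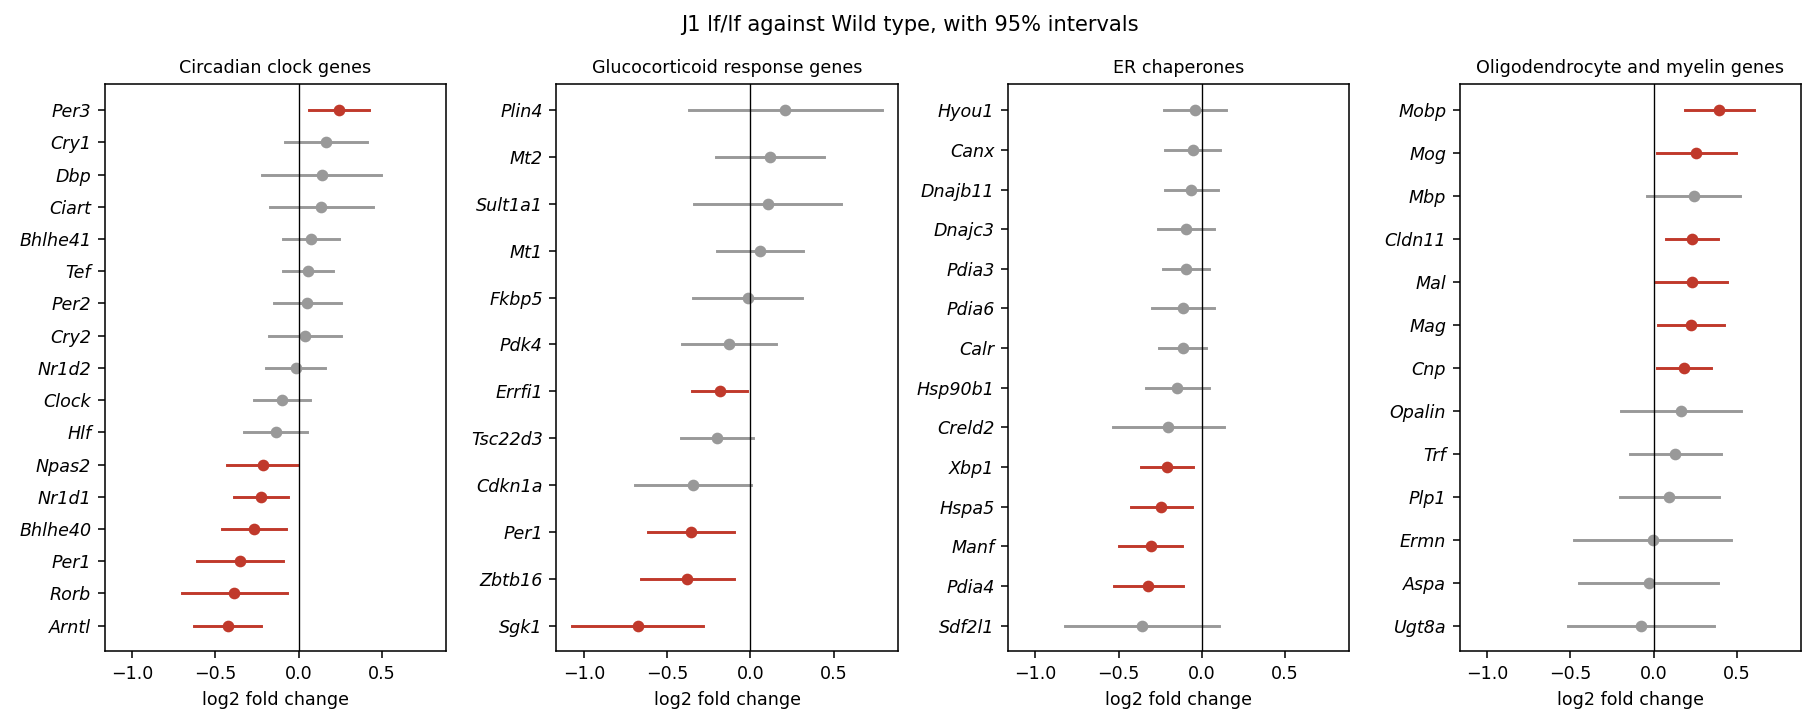
Log2 fold change of J1 lf/lf against Wild type for each tested member of 4 gene lists, with 95% intervals from the edgeR fit. Members with an unadjusted p under 0.05 are red, and none of the members shown passed over all genes. The ER chaperones have negative values throughout, and the myelin genes from -0.08 to 0.39.

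Immediate early genes, which respond within minutes to neuronal activity, were negative in 13 of 14 (median -0.29). Arc, a synaptic activity gene, was at 88.3, 121.1 and 66.0 CPM in Wild type and at 45.3, 48.1 and 59.4 CPM in J1 lf/lf (-0.85, unadjusted p = 0.036). Egr2 was at 3.31, 3.96 and 3.21 CPM against 1.29, 1.91 and 2.19 CPM (-0.95), also without overlap, and Homer1 (-0.26) and Egr3 (-0.32) completed the 4 members at an unadjusted p under 0.05. Of all genes tested, 2.45% were lower at that threshold. Fos was at 13.9, 17.5 and 16.7 CPM against 7.26, 9.15 and 19.5 CPM, with J1 lf/lf replicate 3 the highest of all 6 (-0.43). The list median lay 0.34, 0.42 and -0.23 log2 units from the mean of the 6 libraries in Wild type replicates 1, 2 and 3, and -0.26, -0.17 and -0.004 in the J1 lf/lf replicates, so Wild type replicate 3 was among the J1 lf/lf libraries. Without it the median fold change was -0.50.

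Forebrain glutamatergic neuron genes were negative in 12 of 12 (median -0.12), but the median was -0.02 without Wild type replicate 1, -0.08 without Wild type replicate 2 and -0.30 without Wild type replicate 3. Their level was lowest in Wild type replicate 3, at -0.38, against 0.28 and 0.26 in the other Wild type libraries and -0.04 to -0.05 in J1 lf/lf. Glutamate and GABA receptor genes were negative in 18 of 20 (median -0.08) and genes of synaptic scaffolds and vesicles in 17 of 20 (median -0.08). The receptor median was -0.009 without Wild type replicate 3, -0.03 without J1 lf/lf replicate 3 and -0.13 without Wild type replicate 2 or J1 lf/lf replicate 1. The scaffold median was -0.004, -0.02 and -0.13 without Wild type replicates 1, 2 and 3. Other neuron lists lay on either side of 0. Striatal genes were negative in 9 of 10, cerebellar genes in 10 of 12, thalamic genes in 7 of 10 and cholinergic genes in 6 of 8. With 1 library left out their medians ran from -0.25 to 0.003, -0.27 to -0.10, -0.39 to -0.02 and -0.57 to 0.06. The striatal median was 0.003 without J1 lf/lf replicate 2, and the cholinergic 0.06 without Wild type replicate 2. GABAergic interneuron genes were positive in 8 of 12, monoamine neuron genes in 6 of 10 and hypothalamic neuropeptide genes in 7 of 11. With 1 library left out these medians ran from -0.02 to 0.07, -0.40 to 0.46 and -0.16 to 0.21. Across libraries, the receptors were highest in Wild type replicate 3 (0.13) and the scaffolds lowest there (-0.14). Microglia genes were positive in 11 of 12 (median 0.08) with none at an unadjusted p under 0.05. Their median was 0.005 without Wild type replicate 3 and 0.008 without J1 lf/lf replicate 3, and 0.14 and 0.13 without Wild type replicate 2 and J1 lf/lf replicate 1. Astrocyte genes were positive in 4 of 10 (median -0.03, and -0.09 to 0.02 with 1 library left out). Interferon response genes were positive in 9 of 12 (median 0.15, from 0.09 without Wild type replicate 3 to 0.30 without Wild type replicate 2), with Ifit3, an antiviral protein, at 11.5, 11.1 and 11.1 CPM against 14.0, 14.3 and 14.3 CPM (0.34). Ribosomal protein genes (median 0.04, and 0.004 without Wild type replicate 3) and respiratory chain genes (9 of 18 positive) had none at an unadjusted p under 0.05.

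Wild type replicate 3 stood apart from the other libraries. Of the same 13089 abundant genes, 204 differed more than 2-fold between it and the mean of its group's other libraries, against 22 to 51 in each of the other 5. Thalamic and cerebellar gene medians were highest in it, at 0.46 and 0.26 log2 units above the mean of the 6. Among the 9 genes called lower without this library were the endocannabinoid hydrolase gene Mgll (-0.40) and the potassium channel subunit gene Kcnmb4 (-0.41), both named after their values were seen. The part of its tissue content in the comparison was not tested.

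Olfactory bulb genes were high in 2 of the 3 J1 lf/lf libraries. Doc2g, a protein of the Doc2 family found in mitral cells, was at 1.64, 1.98 and 1.70 CPM in Wild type and at 3.24, 21.1 and 14.5 CPM in J1 lf/lf (2.87, SE 0.46, adjusted p = 0.0517). Omp, the olfactory marker protein of sensory neurons, was at 0.38, 0.09 and 0 CPM against 0.51, 4.69 and 4.16 CPM, and Cdhr1, a cadherin of mitral cells, at 6.55, 8.45 and 9.04 CPM against 7.91, 54.3 and 27.9 CPM. Replicates 2 and 3 were thus high, whereas replicate 1 was near the Wild type level or a little above it in these genes. Ms4a15 was at 0 in all Wild type libraries and at 0.05, 4.83 and 2.41 CPM in J1 lf/lf. Tbx21, a mitral cell transcription factor, Shisa3 and Sp8 followed the same order of libraries, as did Tshz1, which interneurons of the bulb require (48.8, 47.4 and 48.7 CPM against 55.8, 70.7 and 61.7 CPM). Of 13 olfactory bulb genes 11 were positive (median 1.78) and 8 were higher at an unadjusted p under 0.05 (2.6% of all genes tested). The median was 0.70 without J1 lf/lf replicate 2, 1.21 without replicate 3 and 2.19 without replicate 1.

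Genes of other regions and tissues marked further libraries. Hox genes, expressed in hindbrain and spinal cord, were positive in 14 of 14 with a median of 1.64, which was 0.01 without J1 lf/lf replicate 1. Their summed level was 64.1 TPM in that library and 2.87 to 14.96 TPM in the other 5. Pituitary genes summed to 7912 and 11914 TPM in Wild type replicate 2 and J1 lf/lf replicate 3, and to 220.2 to 304.2 TPM elsewhere. Growth hormone Gh was at 1008 and 2372 CPM in these libraries and at 0.34 to 5.27 CPM in the others. Red blood cell genes were highest in J1 lf/lf replicates 3 and 2, with Hba-a2 at 1076 and 539 CPM against 258 to 406 CPM in the other 4. Choroid plexus genes were positive in 12 of 12 (median 0.47) with none at an unadjusted p under 0.05, and their median was 0.66 in J1 lf/lf replicate 3 and -0.77 in Wild type replicate 2. Without Wild type replicate 2 the median fold change was 0.22, and without J1 lf/lf replicate 3 it was 0.20. With Wild type replicate 2 and J1 lf/lf replicate 3 left out together, Ide stayed called (-0.96, adjusted p = 0.00225) and Btaf1 was at -0.60 (adjusted p = 0.404). With J1 lf/lf replicates 2 and 3 left out, which leaves 1 J1 lf/lf library assumed to vary like the other groups, Ide was at -0.91 (adjusted p = 0.103) and no gene was called, with 536 at an unadjusted p under 0.05. The part of dissection in the differences of smaller size was not tested.

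**Figure D4:**
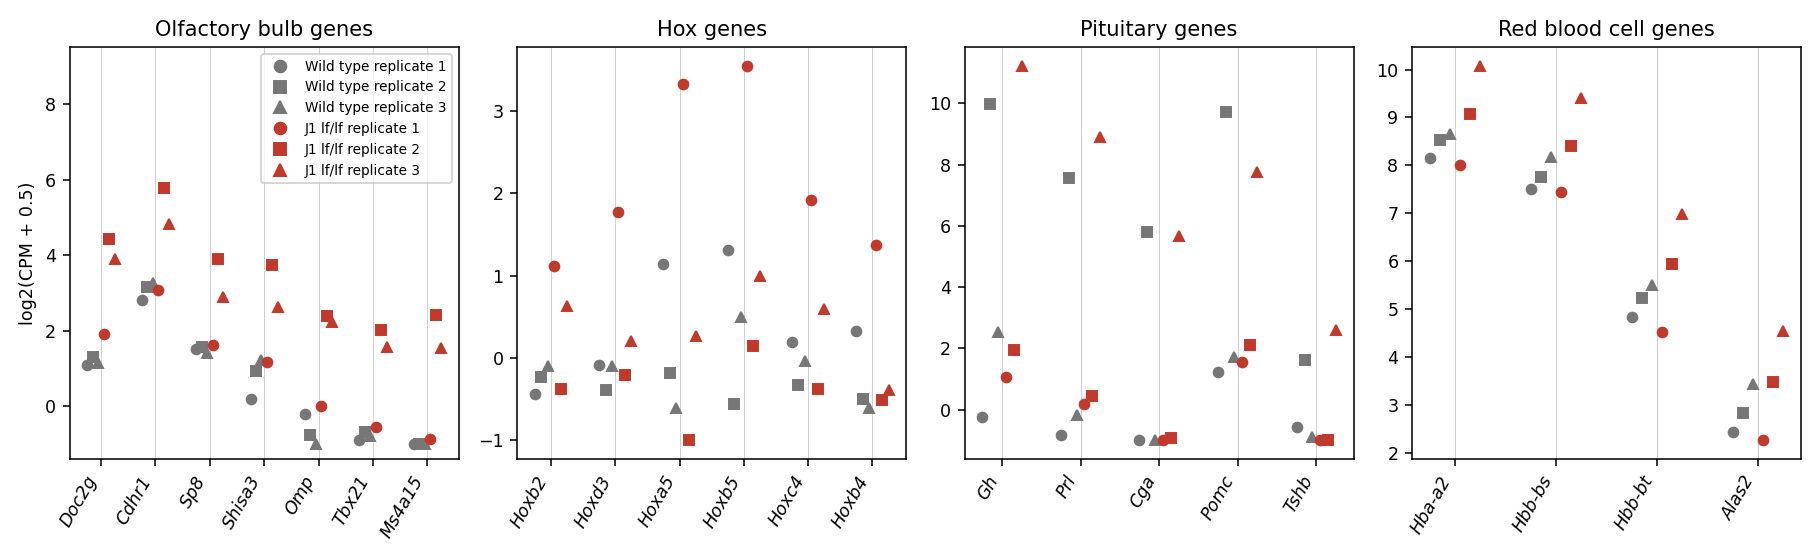
Levels of genes of the olfactory bulb, Hox genes, pituitary genes and red blood cell genes in the 6 libraries, as log2(CPM + 0.5), with 1 point per library. Olfactory bulb genes are high in J1 lf/lf replicates 2 and 3, Hox genes in J1 lf/lf replicate 1, and pituitary genes in Wild type replicate 2 and J1 lf/lf replicate 3.

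**Figure D5:**
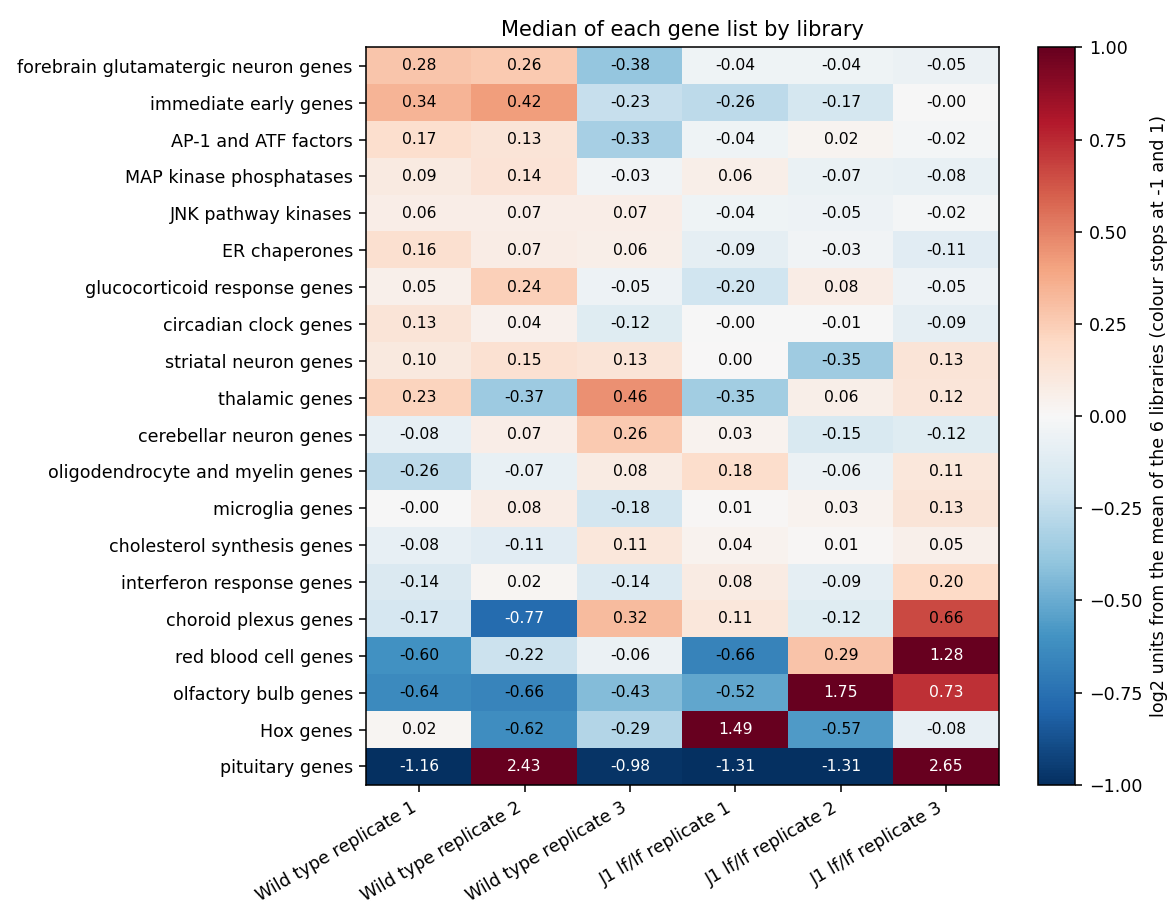
Median of 20 gene lists in each of the 6 libraries, as log2 units from the mean of the 6, with the value printed in each cell. Wild type replicate 3 is low for forebrain glutamatergic genes (-0.38) and AP-1 and ATF factors (-0.33). ER chaperones and JNK pathway kinases are above 0 in all Wild type libraries and below 0 in all J1 lf/lf libraries, a split that was not tested.

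To see which differences were also present against another line, J1 lf/lf was compared with J2 lf/lf, a line with the same suffix. Here 6 genes were lower (0.0374% of those tested) and 7 higher (0.0436%) in J1 lf/lf. Ide (log2 difference -0.86, adjusted p = 6.53e-05) and Btaf1 (-0.68, adjusted p = 0.0043) were among the lower genes. Sgk1 was at 216, 207 and 200 CPM in J2 lf/lf, above all Wild type libraries, and at 78.1, 123.9 and 76.7 CPM in J1 lf/lf (-1.16, adjusted p = 0.0321), so the 2 lines lay on opposite sides of Wild type. Errfi1 (-0.42), Zfp189 (-0.72) and Plekhf1 (-0.97) completed this group. Fn1, the matrix protein fibronectin, was at 99.9, 108.7 and 107.6 CPM in J1 lf/lf and at 68.4, 76.8 and 73.8 CPM in J2 lf/lf (0.53, adjusted p = 0.0043), with Wild type between them at 84.3 to 94.8 CPM. Cep128 (1.02), Ush1g (1.98), Rimklb (0.62) and the olfactory bulb genes Doc2g (2.65) and Shisa3 (3.00) were higher in J1 lf/lf as well. The last, Gt(ROSA)26Sor (4.75), a noncoding transcript, was at 3.99 to 5.91 CPM in Wild type and J1 lf/lf and at 0.08 to 0.31 CPM in J2 lf/lf. The 13 calls became 29 without J1 lf/lf replicate 1 and 3 to 6 without any other library of the 2 lines.

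Against J17b, the line whose Ide and Btaf1 levels were closest, 4 genes were lower (0.0249%) and 1 higher (0.00623%) in J1 lf/lf. Mapk8 was the higher gene, at 102.5 to 122.1 CPM in J1 lf/lf and at 74.6 and 79.2 CPM in J17b (log2 difference 0.57, adjusted p = 0.0486). The lower genes were the ribosomal RNA precursor Rn45s (-3.29), the mitochondrial leucyl-tRNA synthetase gene Lars2 (-2.71), Lrrc58 (-0.52) and the predicted gene 4930488L21Rik (-2.94), all at the same adjusted p. Rn45s was at 23400 and 54698 CPM in the J17b libraries. Its group means were 14057 to 39049 CPM in J17a, J17b, J27a and J27b, and 3982 to 6268 CPM in Wild type, J1 lf/lf and J2 lf/lf. Those of Lars2 were 318 to 738 and 113 to 157 CPM, so neither difference was particular to J17b. None of the 5 was called with only the 2 groups in the fit (adjusted p 0.141 to 0.933), where their log2 differences ran from -3.29 to 0.57. With Rn45s left out of the table, a setting chosen after seeing the data, the other 4 were at an adjusted p of 0.0571, with Mapk8 at 0.57, Lars2 at -2.71, Lrrc58 at -0.53 and 4930488L21Rik at -2.95. The 5 calls became 24 without J17b replicate 1, 2 without J1 lf/lf replicate 1 and 0 without any of the other 3 libraries. J1 lf/lf against Wild type and J1 lf/lf against either line share the J1 lf/lf libraries.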

How the data were processed

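RNA-seq of mouse brain was poly(A)-enriched and paired-end with reads of 150 bp, per the labels' protocols. The authors deposited estimated counts per gene and TPM, made with RSEM after cutadapt on build mm10, per the submitters' processing notes. Versions, annotation and strand setting were not given in the sources used here, so overlapping, antisense and near-identical genes are uncertain. Rounded estimated counts of the 20 libraries were fitted together, each group having its own mean (edgeR 4.0.16, R 4.3.3, TMM factors 0.975 to 1.03, filterByExpr, robust quasi-likelihood, two-sided, Benjamini-Hochberg threshold 0.05). Values of the deposited TPM were tested only as alternatives, on log2(TPM + 1) and log2(TPM + 0.1) with limma 3.58.1. DESeq2 1.42.0 served as another alternative. No pair of replicates agreed within sampling noise. The tests were tried on simulated counts.

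Named are all genes called, in each direction the 12 with the lowest p and the 8 with the largest change among genes of logCPM 1 or more whose groups do not overlap, Mapk8, Mapk9 and Mapk10, up to 4 members of each list with the lowest p, and the genes called against J2 lf/lf and J17b. Other members, neighbours and regional genes were chosen after their values were seen. Genes, lists and rules were chosen with earlier results of these data known. List levels per library are medians of log2(CPM + 0.5), and lists are described without a test. A total of 4 genes are not reported here and were left out of the lists and their counts. Intervals are 95% intervals of the fit. Other alternatives were DESeq2 size factors, all genes kept without a filter, a fit of the compared groups alone, a block for the replicate number, each library left out in turn and, chosen after seeing the data, Rn45s or libraries with pituitary or olfactory bulb transcripts left out.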

Additional observations from a re-analysis of the deposited data

Results flagged for a closer look

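In 13 genes the difference of J1 lf/lf from Wild type departed from that of J2 lf/lf from the same Wild type libraries, by a direct test of J1 lf/lf against J2 lf/lf over all genes (edgeR, adjusted p under 0.05). Lower in J1 lf/lf were Sgk1 (log2 difference -1.16), Plekhf1 (-0.97), Ide (-0.86), Zfp189 (-0.72), Btaf1 (-0.68) and Errfi1 (-0.42). Higher were Gt(ROSA)26Sor (4.75), Shisa3 (3.00), Doc2g (2.65), Ush1g (1.98), Cep128 (1.02), Rimklb (0.62) and Fn1 (0.53). Of these, Ide and Btaf1 also differed from Wild type. Doc2g and Shisa3 were high in J1 lf/lf replicates 2 and 3, and the part of olfactory bulb tissue in their values was not tested.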

How the results depend on the processing

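The call of Ide held in the alternatives run except with J1 lf/lf replicates 2 and 3 left out together (log2 fold change -0.91, adjusted p = 0.103), a setting chosen after seeing the data, as were the pituitary-high libraries (Wild type replicate 2 and J1 lf/lf replicate 3) and Rn45s left out. The first of these is called olfactory-high here. Btaf1 was not called with only the 2 groups in the fit (-0.68, adjusted p = 0.475), with limma on log2(TPM + 1) (-0.66, adjusted p = 0.138) or log2(TPM + 0.1) (-0.70, adjusted p = 0.119), with the pituitary-high libraries left out (-0.60, adjusted p = 0.404) or with the olfactory-high libraries left out (-0.63, adjusted p = 1.0). With each of the 6 libraries left out in turn it ran from -0.73 to -0.61, and its call was lost without J1 lf/lf replicate 3. Genes lower against Wild type numbered 5 with the DESeq2 Wald test, 1 with the 2 groups only, 1 with limma at either pseudocount, 1 and 0 with the pituitary-high and olfactory-high libraries left out, and 1 to 9 with a library left out (9 without Wild type replicate 3). Genes higher numbered 12 with DESeq2 and 1 with Rn45s left out. With a library left out they numbered 0 to 12 (12 without J1 lf/lf replicate 1). Both sets of 12 held the olfactory bulb genes Doc2g, Omp, Ms4a15, Shisa3 and Tbx21, and also Pcp4l1, Slc38a3 and Tshz1. These olfactory bulb genes were high in J1 lf/lf replicates 2 and 3. Against J2 lf/lf, 13 genes became 73 with DESeq2, 80 with the 2 groups only, 4 with limma at either pseudocount and 3 to 29 with a library left out. Against J17b, 5 became 23 with DESeq2, 0 with the 2 groups only, 2 with limma, 0 with Rn45s left out and 0 to 24 with a library left out. Same-numbered replicates did not vary together (correlations of their deviations 0.01, -0.07 and -0.18), and not every library correlated best with its own number. With the replicate number as a block, 2 genes were called lower and 0 higher against Wild type, and 10 and 4 against J2 lf/lf and J17b. Signs turned only in genes that were not called against Wild type. With a library left out in turn their log2 fold changes ran from -0.17 to 0.011 for Mapk8, -0.065 to 0.088 for Mapk9, -0.14 to 0.076 for Map2k4, -0.13 to 0.046 for Map2k7, -0.024 to 0.047 for Cpeb3, -0.038 to 0.026 for March5, -0.19 to 0.0016 for Jun, -0.054 to 0.0020 for App, -0.18 to 0.14 for Fkbp5, -0.016 to 0.16 for Rimklb and -0.041 to 0.22 for Gt(ROSA)26Sor. With limma on log2(TPM + 1) Map2k7 was at 0.0081, Cpeb3 was at -0.0087 and March5 was at 0.026. With limma on log2(TPM + 0.1) Map2k7 was at 0.0082, Cpeb3 was at -0.0088 and March5 was at 0.027. With the replicate number as a block Fkbp5 was at 0.0031. With the pituitary-high libraries left out Map2k7 was at 0.0033, Jun was at 0.00044, Fkbp5 was at 0.091 and Gt(ROSA)26Sor was at -0.066. With the olfactory-high libraries left out Map2k4 was at 0.092, March5 was at 0.029, App was at 0.035, Cdhr1 was at -0.019, Hba-a2 was at -0.45 and Rimklb was at -0.050. The cause of these changes was not tested. Genes at a few CPM had wide intervals, as with Abca6 (SE 0.41) and Omp (SE 0.79).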
